A study of Mus musculus with 6 samples.

Results

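The 10 genes described here mark stem or progenitor cells in epithelia other than the esophagus: Lrig1, Lgr4, Lgr5, Lgr6, Cd34, Cd44, Sox9, Ly6a, Prom1 and Tert. They were picked by name, and all 10 have a row among the 24016 genes of the deposited table. RNA came from basal cells of the mouse esophagus in 6 libraries. Every mouse was Krt15-CrePR1;R26mTomato/mGFP, which means that the Krt15 promoter drives a Cre recombinase that RU486 (mifepristone) activates, and that Cre switches a membrane reporter from Tomato to GFP. All received 1 mg of RU486, and cells were sorted 24 h later on high CD29, which is integrin beta-1 and marks basal cells. CD29high cells without GFP make up the Krt15-negative group (3 libraries) and CD29high cells with GFP the Krt15-positive group (3 libraries). Alleles and drug were the same in both groups, and the sources used here give neither strain nor age. GFP reports that Cre has acted, so a basal cell that expresses Krt15 but has not recombined is counted as Krt15-negative. Whether libraries within a group came from different mice is not stated, so p-values measure only how far these libraries vary, and that variation may be technical.

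Values are FPKM, fragments per kilobase of transcript and per M mapped fragments (M, mega), and a gene counts as detected in a library at 1 FPKM or more. An estimated 27.5 to 41.6 M fragments stood behind each library, and 3247 to 9194 genes were detected. Krt15-negative replicate 1 had the fewest, 3247, against 6906 to 9194 in the other 5. Of 16 housekeeping genes, 3 had a value of 0 in Krt15-negative replicate 1, 2 in Krt15-negative replicate 2 and 0 in the other 4. Those detected numbered 11, 13 and 14 in Krt15-negative replicates 1 to 3 and 16, 16 and 15 in Krt15-positive replicates 1 to 3. A listed 0 thus need not mean that a gene is silent, and genes with zeros are given library by library. What caused the zeros was not tested. Basal genes were present: Krt5, Krt14 and Krt15 read between 369 and 9692 FPKM in all 6 libraries, and 8 of 10 basal keratinocyte genes were detected in all 6. In Krt15-negative replicate 1 the basal regulator Trp63 read 0.459 FPKM, against 30.8 to 87.2 in the other 5. Krt15 read 2350.2, 6784 and 3412 FPKM in Krt15-negative replicates 1 to 3 and 3349.8, 9692 and 2419.5 in Krt15-positive replicates 1 to 3, overlapping groups. Genes of the suprabasal layers were abundant too. Their sum exceeded that of the basal genes in every library, at 9291 to 37976 FPKM against a basal 3960 to 11138 in the Krt15-negative group, and at 8944 to 53143 against 3898 to 14138 in the Krt15-positive group. Krt4 read 606 to 6295 FPKM, Krt13 847 to 3771, Cnfn 158 to 1873, and Krtdap 0 in Krt15-negative replicate 3 and 7254 to 41287 elsewhere. Krtdap held much of the suprabasal sum. In Krt15-positive replicate 1 it read 7254 of 8944 FPKM, beside a basal sum of 5727, and sums without Krtdap were not compared. Rhcg was listed at 0 in all 6 libraries, and Ivl was at most 0.0177 FPKM. The libraries thus carry suprabasal RNA beside basal RNA, and its part in the members' values was not tested. Muscle genes (led by Acta2, Acta1, Des and Tagln) summed to at most 10.5 FPKM in any library. Itgb1, the gene of CD29, read 1.03, 20.7 and 16.7 FPKM against 23.4, 43.3 and 10.8.

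As background, stem cells of other epithelia are recognised by a few classes of protein. LGR receptors bind R-spondins and strengthen Wnt signalling, with Lgr5 known from intestinal crypts and hair follicles and Lgr6 from the follicle isthmus. LRIG1 is a transmembrane brake on ERBB receptors that marks quiescent cells in skin and gut. CD34 marks the hair follicle bulge but also fibroblasts and endothelium, CD44 is the hyaluronan receptor, and Ly6a (Sca-1) is a lipid-anchored surface protein of blood progenitors and many other cells. Sox9 is a transcription factor of follicle and gland progenitors, Prom1 encodes CD133, and Tert encodes the catalytic subunit of telomerase.

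The members fell into 3 tiers. Ly6a and Cd44 were detected in all 6 libraries, as were 9.95% of all genes. Lrig1, Lgr4, Lgr6, Cd34 and Sox9 were detected in some libraries. Lgr5, Prom1 and Tert reached 1 FPKM in no library, as did 51.7% of all genes. In all 3 Krt15-negative libraries 2 members were detected (Cd44 and Ly6a; 10.9% of all genes), and in all 3 Krt15-positive libraries 3 were (Lrig1, Cd44 and Ly6a; 23.9% of all genes).

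Library by library the set of detected members changed. Krt15-negative replicate 1 had Cd44 and Ly6a alone. Krt15-negative replicate 2 had those and Lrig1, Cd34 and Sox9, and Krt15-negative replicate 3 had Cd34, Cd44 and Ly6a. Krt15-positive replicate 1 had Lrig1, Lgr4, Cd44 and Ly6a, Krt15-positive replicate 2 those and Lgr6 and Sox9, and Krt15-positive replicate 3 Lrig1, Cd44 and Ly6a. Of 30 pairs of a member and a library in each group, 10 were detected among the Krt15-negative and 13 among the Krt15-positive, beside 25.1% and 34.3% of such pairs over all genes. Without Krt15-negative replicate 2 the count of Krt15-negative pairs was 5, and without Krt15-positive replicate 2 that of Krt15-positive pairs was 7.

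**Figure D1:**
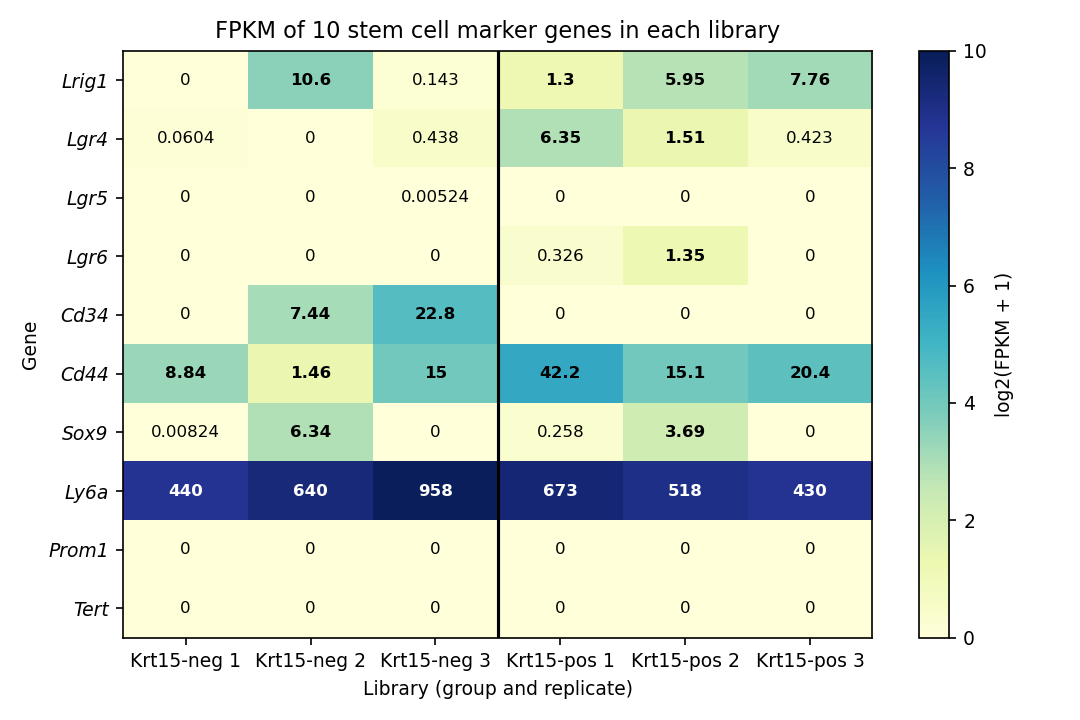
FPKM of the 10 members (rows) in the 6 libraries (columns, Krt15-negative left of the line and Krt15-positive right); colour is log2(FPKM + 1), and printed FPKM values of 1 or more are bold. Ly6a and Cd44 are filled across all columns, Cd34 only in 2 Krt15-negative columns, and Lgr5, Prom1 and Tert stay under 1 FPKM throughout.

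The groups were compared with limma on log2(FPKM + 1) over the 9423 genes whose mean reached 1 FPKM. Lrig1, Lgr4, Cd34, Cd44, Sox9 and Ly6a passed that filter, and Lgr5, Lgr6, Prom1 and Tert did not and were not tested. None of the 6 passed a Benjamini-Hochberg adjusted p of 0.05 with limma, and neither did any other gene (0 of 9423, 0%). At an unadjusted p under 0.05, limma put 300 genes higher (3.18%) and 70 lower (0.743%) in the Krt15-positive group, and 0 members among them. Differences below are Krt15-positive minus Krt15-negative. The median difference of all tested genes was 0.63 and not 0, so each member's difference is also given relative to it. That median is no offset shared by every gene. Over the 16 housekeeping genes it was -0.007, and over all tested genes without Krt15-negative replicate 1 it was 0.03. Over the 6 tested members 3 differences were above 0 and 3 below, with a median of 0.51.

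**Figure D2:**
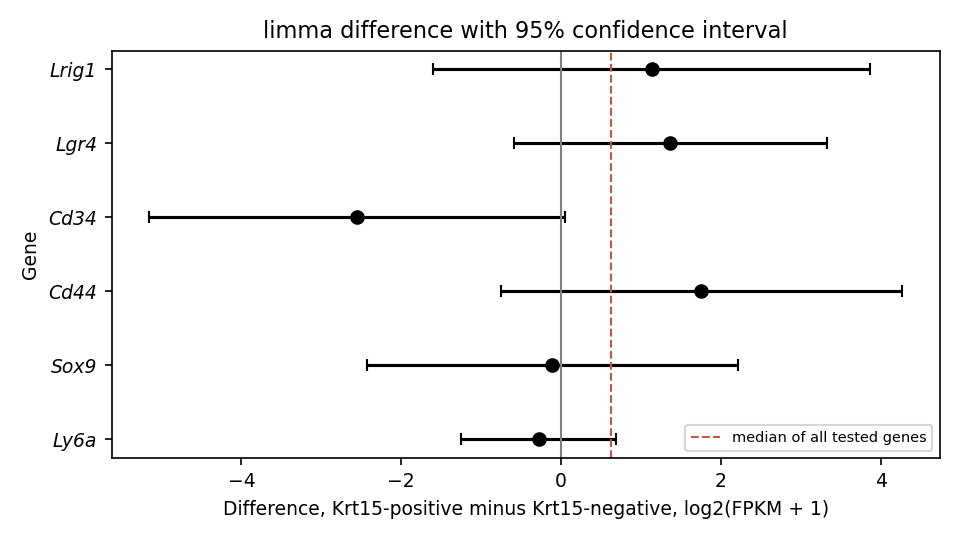
Difference in log2(FPKM + 1), Krt15-positive minus Krt15-negative, for the 6 tested members, as the limma estimate (point) with its 95% confidence interval (bar). All 6 intervals include 0, which is the grey line; the dashed line is the median of all tested genes, 0.63.

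Ly6a was the most abundant member in every library. It read 440, 640 and 958 FPKM in Krt15-negative replicates 1 to 3 (mean 679 ± 261, SD, n = 3) and 673, 518 and 430 FPKM in Krt15-positive replicates 1 to 3 (540 ± 123, SD, n = 3). The lowest value was in a Krt15-positive library and the highest in a Krt15-negative one, and the groups overlapped. Between 98.5% and 99.2% of all genes had a lower FPKM in the same library. The limma difference was -0.28 (SE 0.44, 95% confidence interval -1.25 to 0.68, adjusted p = 0.87), or -0.91 relative to the median gene. The difference was -0.14 with median-of-ratios scaling and -0.75 with upper-quartile scaling. Without Krt15-negative replicate 3 it was 0.00068.

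Genes of similar sequence limit how well Ly6a reads can be assigned. Of 1297 distinct stretches of 50 bases in Ly6a transcripts, 229 (17.7%) also occur in another protein-coding gene, 195 in Ly6c1, 31 in Ly6i and 3 in Ly6c2. All 4 genes lie on chromosome 15. The first 120 coding bases, 5′ to 3′, show this likeness; they come from the GENCODE M21 transcripts (GRCm38 build), and capitals mark a base that differs from Ly6a.
Ly6a: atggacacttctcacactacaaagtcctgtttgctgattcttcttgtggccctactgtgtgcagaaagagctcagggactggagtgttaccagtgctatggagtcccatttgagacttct
Ly6c1: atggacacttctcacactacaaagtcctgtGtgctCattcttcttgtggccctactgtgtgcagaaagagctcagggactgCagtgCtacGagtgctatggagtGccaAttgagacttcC
Ly6c2: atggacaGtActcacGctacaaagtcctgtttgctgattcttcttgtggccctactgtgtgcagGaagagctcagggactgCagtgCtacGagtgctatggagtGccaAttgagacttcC
Ly6i: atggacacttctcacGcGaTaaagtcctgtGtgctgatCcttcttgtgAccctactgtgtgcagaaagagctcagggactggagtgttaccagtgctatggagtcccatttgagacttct

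Within these bases Ly6c1 differs from Ly6a at 8 positions, Ly6c2 at 10 and Ly6i at 6. Over the whole coding sequence (402 bases in Ly6a) identity to Ly6a was 86.3% for Ly6i, 81.8% for Ly6c1 and 81.6% for Ly6c2, and 49.3% for the more distant Ly6e.

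The close relatives were listed at far lower FPKM than Ly6a, and how shared reads were divided among them is not stated in the labels. Ly6c1, a marker of monocytes and endothelium, read 72.3, 51.4 and 118 FPKM among the Krt15-negative libraries and 9.20, 30.2 and 36.6 among the Krt15-positive ones. Those groups did not overlap, with Krt15-positive lower, as in 2.44% of tested genes. The limma difference was -1.75 (SE 0.93, adjusted p = 0.79). Ly6c2 read 7.02, 7.59 and 15.1 FPKM against 1.80, 4.06 and 5.26 and did not overlap either. Ly6i stayed under 0.47 FPKM except in Krt15-positive replicate 1, where it read 4.26. These 3 relatives were chosen for their shared sequence.

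Other Ly6 and uPAR domain genes numbered 17, of which 13 were tested, with 7 differences above 0 and 6 below, a median of 0.15 and 0 past the adjusted threshold. The most abundant was Ly6d, a keratinocyte surface protein, at 5979, 5472 and 13299 FPKM against 2252, 5339 and 12124. Ly6e read 165 to 300 FPKM against 217 to 427, and Ly6g6c 32.0 to 551 against 43.4 to 679. Lypd2 was split in another way, at 744 and 1183 FPKM in the replicate 1 library of each group and between 0 and 16.3 in the other 4.

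**Figure D3:**
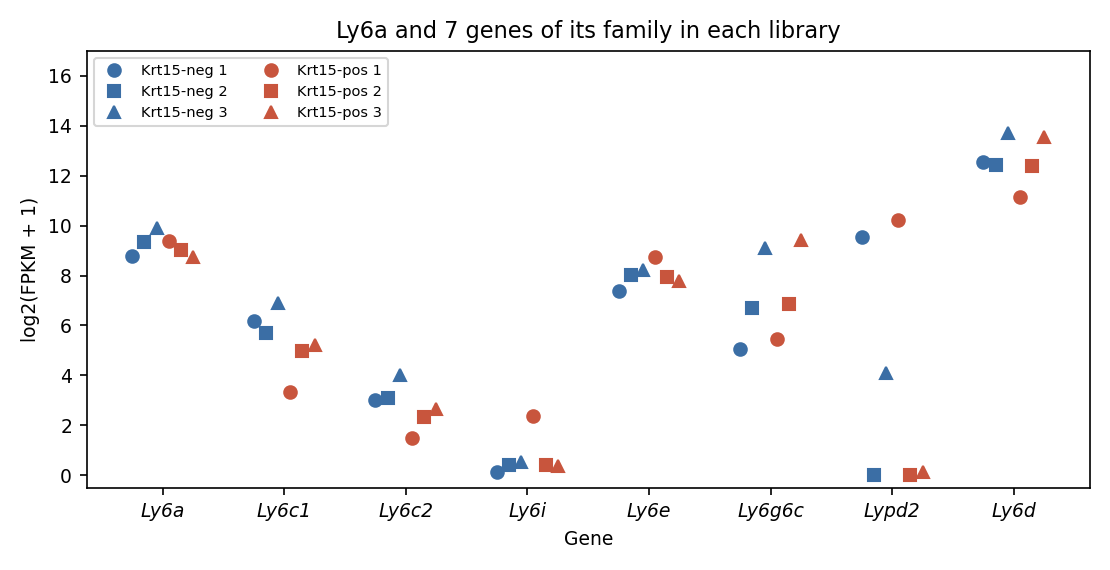
log2(FPKM + 1) of Ly6a, 3 relatives that share sequence with it and 4 abundant family members, with Krt15-negative libraries in blue, Krt15-positive in red and marker shape giving the replicate. Ly6a lies in a narrow band, Ly6c1 and Ly6c2 lie lower in the Krt15-positive libraries, and Lypd2 is high in the replicate 1 library of each group.

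Cd44 was the second member detected everywhere. It read 8.84, 1.46 and 15.0 FPKM among the Krt15-negative libraries (8.43 ± 6.78, SD, n = 3) and 42.2, 15.1 and 20.4 FPKM among the Krt15-positive ones (25.9 ± 14.4, SD, n = 3). The groups did not overlap, but only just, since the highest Krt15-negative and the lowest Krt15-positive library both stood near 15 FPKM. It was the 1 of 6 tested members to separate so, and 8.85% of tested genes did. Its limma difference was 1.76 (SE 1.15, 95% confidence interval -0.75 to 4.27, adjusted p = 0.79), or 1.13 relative to the median gene, and 85.1% of tested genes had a lower difference. Without Krt15-negative replicate 2, the lowest library, it was 0.97. Its transcripts shared no stretch of 50 bases with another protein-coding gene, and other kinds of gene were not searched.

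Cd44 is also high on leukocytes, so their markers were read beside it. Of 8 tested immune markers 6 had a difference below 0 and 2 above, with a median of -1.74 and 0 past the adjusted threshold. Some, such as Nkg7, passed the filter through their Krt15-negative values alone, so these counts are no independent sign of a difference. Tyrobp was lower in the Krt15-positive libraries without overlap, at 203, 124 and 31.0 FPKM against 0, 20.2 and 27.6. The 12 immune markers summed to 606 to 938 FPKM among the Krt15-negative libraries and to 7316, 156 and 146 in Krt15-positive replicates 1 to 3. In Krt15-positive replicate 1, where Cd44 was highest, Lyz2 alone read 7279 FPKM. Without Lyz2 the other 11 summed to 267, 785 and 631 FPKM in the Krt15-negative libraries against 36.8, 92.9 and 118, the lowest being Krt15-positive replicate 1. Of the most abundant others, H2-Ab1 read 0, 56.1 and 222 FPKM against 35.9, 40.7 and 69.4, Cd74 64.1, 0 and 316 against 0.191, 21.1 and 20.9, and Nkg7 459 in Krt15-negative replicate 2 and under 0.1 elsewhere. Ptprc, which encodes the leukocyte surface protein CD45, was at most 3.95 FPKM, in Krt15-negative replicate 2 where Cd44 was lowest. Without Krt15-positive replicate 1 the Cd44 difference was 1.35. In bulk samples fewer cells of a type and less RNA per cell cannot be told apart.

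Genes that bind CD44 or handle hyaluronan gave no call. Of 10 in the list 7 were tested, 4 with a difference above 0 and 3 below, with a median of 0.15. Ezr, Rdx and Msn encode ezrin, radixin and moesin, which link CD44 to actin. Ezr read 50.3, 84.8 and 43.4 FPKM against 79.9, 105 and 71.7, and Rdx 4.77, 30.2 and 16.3 against 36.2, 22.0 and 17.3. Msn read 0.107, 26.1 and 4.97 FPKM against 2.30, 8.18 and 0.860. Hyal2, a hyaluronidase, read 0, 79.3 and 20.6 against 13.8, 39.5 and 13.1. Spp1, which encodes the CD44 ligand osteopontin, was listed at 0 in all 6 libraries.

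The genes whose log2(FPKM + 1) ran most like Cd44 over the 6 libraries were Otud4 (Pearson r = 0.974), Eif2a (0.961) and Hnrnpa0 (0.955). Those most like Ly6a were H2-Ke2 (r = 0.988), Zfp944 (0.967) and Vti1b (0.963). These are the highest of 9422 correlations over 6 libraries that also share depth and the number of detected genes, and they are given as a description.

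Lrig1 was detected in all 3 Krt15-positive libraries and in 1 Krt15-negative library. It read 0, 10.6 and 0.143 FPKM among the Krt15-negative libraries and 1.30, 5.95 and 7.76 among the Krt15-positive ones. The highest of the 6 values was in Krt15-negative replicate 2, so the groups overlapped. The limma difference was 1.13 (SE 1.25, 95% confidence interval -1.60 to 3.87, adjusted p = 0.82), or 0.51 relative to the median gene. Without Krt15-negative replicate 2 it was 2.28, and without Krt15-negative replicate 1 it was 0.51. Exons of Slc25a26 overlap Lrig1 on the other strand, and the library kit does not mark strand, so reads of the overlap cannot be assigned. The overlap covers 90 of 4955 stretches of 50 bases (1.82%), and Slc25a26 itself read 8.80 and 4.43 FPKM in Krt15-positive replicates 1 and 2 and under 0.07 in the other 4 libraries.

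The relatives and targets of Lrig1 held 5 tested genes of 7, 4 with a difference above 0 and 1 below, a median of 1.86 and 0 past the adjusted threshold. Lrig3, a paralog of Lrig1, read 0.152, 0.151 and 4.69 FPKM against 11.4, 25.5 and 12.3, with no overlap and a limma difference of 3.06 (SE 1.17, adjusted p = 0.79). Erbb2 read 0.0951, 0.941 and 3.05 FPKM against 5.84, 6.08 and 9.29, also without overlap (difference 1.95, SE 1.07, adjusted p = 0.79 by limma). Egfr, the receptor of epidermal growth factor, read 0, 1.32 and 4.14 FPKM against 1.30, 15.0 and 14.4. Errfi1, an inhibitor of the same receptors, ran the other way at 31.6, 67.2 and 11.8 against 27.8, 26.9 and 1.83 (difference -1.21, SE 1.23). Each of Lrig3, Erbb2 and Egfr was lowest in Krt15-negative replicate 1 or 2, the libraries that had housekeeping genes at 0, and the part of those zeros in the differences was not tested.

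Of the LGR receptors only Lgr4 was tested. It read 0.0604, 0 and 0.438 FPKM among the Krt15-negative libraries, all under the detection threshold. In the Krt15-positive libraries it read 6.35, 1.51 and 0.423 FPKM. Krt15-positive replicates 1 and 2 were above all others, while Krt15-positive replicate 3 lay just below Krt15-negative replicate 3, so the groups overlapped. The limma difference was 1.37 (SE 0.90, 95% confidence interval -0.60 to 3.33, adjusted p = 0.79), or 0.74 relative to the median gene. Lgr4 passed the filter through its Krt15-positive values, so a difference above 0 is no independent sign. The difference was 0.72 without Krt15-positive replicate 1, where Lgr4 then missed the filter, and 0.11 after quantile normalization of the libraries.

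Krt15-positive replicate 1, the highest library for both Lgr4 and Cd44, also stood out in markers of simple and glandular epithelium. Those 10 markers summed to 581, 72.8 and 141 FPKM among the Krt15-negative libraries and to 2233, 81.0 and 76.0 among the Krt15-positive ones. The number detected was 9 of 10 in Krt15-positive replicate 1, 5 in each of Krt15-negative replicates 1 and 3, and 1 to 3 in the rest. Krt19 read 718 FPKM in Krt15-positive replicate 1, Krt18 559 and Cldn3 333, and Cldn3 was listed at 0 in the other 5. Other genes of the list were not highest there: Krt7 read 78.3 FPKM against 219 in Krt15-negative replicate 1, Foxa1 27.0 against 85.2, and Cldn10 58.7 against 75.3 in Krt15-positive replicate 3. Foxa2 was listed at 0 in all 6. In Krt15-negative replicate 1, the next highest sum, Lgr4 was 0.0604 FPKM. Their part in the Lgr4 and Cd44 values was not tested.

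**Figure D4:**
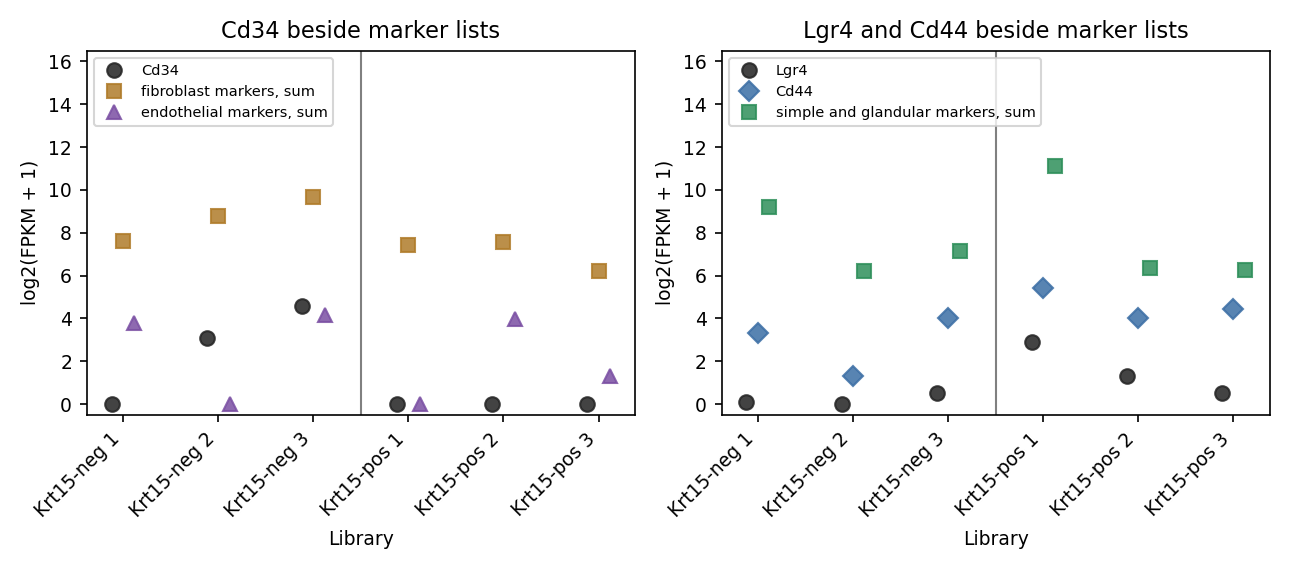
log2(FPKM + 1) in each library of Cd34 with the summed fibroblast and endothelial markers (left) and of Lgr4 and Cd44 with the summed simple and glandular epithelium markers (right). Cd34 is above 0 in Krt15-negative replicates 2 and 3 alone, the fibroblast sum (of which Dcn is up to 457 FPKM) is above 0 in all 6, and Lgr4 and Cd44 are highest in the library with the highest simple and glandular sum.

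Lgr6 was listed at 0 in all 3 Krt15-negative libraries and read 0.326, 1.35 and 0 FPKM among the Krt15-positive ones. The 1.35 FPKM of Krt15-positive replicate 2 corresponds to about 308 fragments on its longest coding transcript, so the level is low but rests on many fragments. Lgr5 was listed at 0 in 5 libraries, and its 0.00524 FPKM in Krt15-negative replicate 3 corresponds to about 0.97 of a fragment, that is to a single one.

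The other genes of that pathway were low too. The 4 R-spondin genes, Rspo1 to Rspo4, were listed at 0 in all 6 libraries. Of 9 pathway genes 2 were tested, with 0 past the threshold: Lrp6, a Wnt co-receptor, at 4.55, 0 and 0.755 FPKM against 1.70, 0.309 and 4.61, and Rnf43, a ubiquitin ligase that removes Wnt receptors, at 2.32, 2.90 and 0.00574 against 0.00825, 4.21 and 0. Znrf3, the other such ligase, reached 2.52 FPKM in Krt15-positive replicate 1, where Lgr4 was highest, and at most 0.538 elsewhere. Lrp5, also a Wnt co-receptor, reached 1.47 FPKM in Krt15-positive replicate 2 and at most 0.0939 elsewhere.

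Cd34 had the largest difference among the 6 tested members. It read 0, 7.44 and 22.8 FPKM among the Krt15-negative libraries and was listed at 0 in all 3 Krt15-positive ones. A single fragment would read 0.0115 to 0.0143 FPKM there. Because Krt15-negative replicate 1 was also at 0, the groups overlapped. The limma difference was -2.55 (SE 1.19, 95% confidence interval -5.15 to 0.05, unadjusted p = 0.054, adjusted p = 0.79), or -3.18 relative to the median gene. Of tested genes 0.658% had a lower one. Cd34 passed the filter through its Krt15-negative values alone, so that share is no independent sign of a difference. The size of the difference depends on the pseudocount, from -4.69 with 0.1 to -1.26 with 5, and on single libraries, at -3.82 (unadjusted p = 0.0045, adjusted p = 0.89 by limma) without Krt15-negative replicate 1 and -1.54 (adjusted p = 0.64) without Krt15-negative replicate 3. With library weights, which favour Krt15-negative replicate 3 where Cd34 was highest, it was -4.08 (adjusted p = 0.16).

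Fibroblast markers were read beside Cd34. The 12 genes summed to 195, 442 and 809 FPKM in Krt15-negative replicates 1 to 3 and to 172, 192 and 72.5 in the Krt15-positive libraries. Much of that was Dcn, which encodes decorin and read 13.9, 267 and 457 FPKM against 167, 176 and 71.1. Without Dcn the other 11 summed to 181, 175 and 351 FPKM against 4.95, 15.8 and 1.39. Of the 12, the Krt15-negative libraries detected 9, 10 and 11 and the Krt15-positive ones 2, 3 and 2. Of 11 tested, 10 had a difference below 0, with a median of -2.63, and 7 did not overlap between groups, where 2.44% of tested genes were lower without overlap. None passed the adjusted threshold. Most of the 11, Mfap5, Dpt and Vim among them, passed the filter through their Krt15-negative values alone. Like the share given for Cd34, these counts are therefore no independent sign of a difference. Mfap5, a microfibril gene, read 38.8, 49.3 and 103 FPKM against 0, 0 and 0.0744, and Dpt, which encodes dermatopontin, 30.7, 28.3 and 46.6 against 0, 0.0186 and 0. Vim, which encodes vimentin, read 72.5, 43.2 and 35.5 FPKM against 0, 3.51 and 0.0744. Cd34 was listed at 0 in Krt15-negative replicate 1, where 9 fibroblast markers were detected and 3 housekeeping genes were also at 0. The part of fibroblast RNA in the Cd34 values was not tested.

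Endothelial markers ran differently. They summed to 13.0, 0 and 17.1 FPKM among the Krt15-negative libraries and to 0, 14.7 and 1.47 among the Krt15-positive ones, and Cdh5, Tie1, Emcn and Cldn5 were listed at 0 in all 6. Esam read 13.0 FPKM in Krt15-negative replicate 3, 10.2 in Krt15-positive replicate 2 and at most 1.42 elsewhere. Flt1 was detected in Krt15-negative replicate 1 alone (13.0 FPKM), Pecam1 in Krt15-negative replicate 3 alone (3.87) and Egfl7 in Krt15-positive replicate 2 alone (4.50). In Krt15-negative replicate 2, where Cd34 read 7.44 FPKM, all 10 endothelial markers were at 0, as were 2 housekeeping genes. The part of endothelial RNA in the Cd34 values was not tested. The CD34 relatives Podxl and Podxl2 were at 0 in all 6 libraries as well. Fibroblasts can also express Ly6a, and the part of their RNA in its values was not tested.

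Prom1 was listed at 0 in all 6 libraries. A level of 1 FPKM would have corresponded to about 112 to 170 fragments, depending on the library. Its relative Prom2, which encodes a similar membrane protein, was expressed: it read 0.347, 16.4 and 4.99 FPKM against 4.35, 22.6 and 12.4, with overlapping groups and a limma difference of 1.19 (SE 1.28, adjusted p = 0.82).

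Sox9 was detected in the replicate 2 library of each group and in no other. It read 0.00824, 6.34 and 0 FPKM among the Krt15-negative libraries and 0.258, 3.69 and 0 among the Krt15-positive ones. Both replicate 2 libraries were above 3 FPKM, both replicate 3 libraries were at 0, and the value in Krt15-negative replicate 1 corresponds to about 0.99 of a fragment. Library names of the same number share a code whose meaning the labels do not give, so what the replicate 2 libraries have in common is not known. The limma difference was -0.11 (SE 1.06, 95% confidence interval -2.43 to 2.21, adjusted p = 0.98), or -0.74 relative to the median gene, and its sign changed without Krt15-negative replicate 2 (0.85).

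The other Sox genes ranged widely. Of 14 in the list 7 were under 1 FPKM in all 6 libraries, 5 of those at 0 throughout, and 4 were detected in every library. Of the 14, 6 were tested, 5 with a difference above 0 and 1 below, with a median of 0.63 and 0 past the threshold. Sox15, found in squamous epithelia, read 80.5, 290 and 303 FPKM against 147, 242 and 242. Sox2, a transcription factor of foregut epithelium, read 6.37, 19.1 and 16.2 FPKM against 17.2, 26.0 and 25.6. Sox21 read 4.43 to 8.38 FPKM against 8.69 to 27.8, without overlap (difference 1.53, SE 1.08, adjusted p = 0.79 by limma). Sox6 read 8.43, 3.63 and 5.70 FPKM against 4.19, 5.80 and 21.5. These are the 4 detected in every library; in Krt15-negative replicate 2 Sox9, at 6.34 FPKM, was above Sox6.

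Tert was listed at 0 in all 6 libraries, where 1 FPKM would correspond to about 118 to 180 fragments. Terc, the RNA template of telomerase, was also listed at 0 throughout. Whether the cDNA kit captures that RNA was not tested, so its 0 does not show that it is absent. Genes of the enzyme's accessory proteins were expressed. Nop10 read 1243, 549 and 741 FPKM against 630, 491 and 623, and Nhp2 407, 487 and 560 against 295, 398 and 532. Gar1, the third of these box H/ACA proteins, which also serve other small RNAs, read 40.1, 159 and 51.1 FPKM against 37.6, 84.5 and 15.2. Acd, which encodes the shelterin protein TPP1, read 0.0256, 51.2 and 28.0 against 36.6, 42.9 and 50.1. Of 14 telomerase and shelterin genes 11 were tested, 5 with a difference above 0 and 6 below, with a median of -0.27 and 0 past the threshold.

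Beside the 10 members, 36 further stem and progenitor markers were read. Of these 24 were tested, 20 with a difference above 0 and 4 below, with a median of 1.11 against 0.63 over all tested genes, and 0 passed the adjusted threshold. Some of the 24 passed the filter through their Krt15-positive values alone, so these counts are no independent sign of a difference. The most abundant were Krt15 itself, Krt19, Epcam and Aldh1a1. Epcam, an epithelial adhesion gene, read 62.6 to 89.8 FPKM among the Krt15-negative libraries and 75.6 to 124 among the Krt15-positive ones. Aldh1a1, a retinaldehyde dehydrogenase, read 22.9, 47.2 and 23.2 FPKM against 302, 16.2 and 36.0, with its highest value again in Krt15-positive replicate 1. Olfm4, Nfatc1, Lhx2, Abcg2 and Msi1, markers of gut, hair follicle and other tissue progenitors, were listed at 0 in all 6 libraries, like Prom1 and Tert.

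Within libraries of the same number the members gave no common direction. Cd44 was higher in the Krt15-positive library for all 3 numbers, which follows from its groups not overlapping. Lrig1 was higher for numbers 1 and 3 and lower for 2, and Lgr4 higher for 1 and 2 and slightly lower for 3. Ly6a was higher for 1 and lower for 2 and 3, and Cd34 was lower for 2 and 3 and at 0 in both libraries for 1.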

How the data were processed

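The deposited table holds a value per gene and library in FPKM as the authors estimated it. The submitters' processing notes name the mm9 build and, without roles, DESeq2, Cufflinks 2.2.1 and STAR 2.5; the sources used here give no annotation, filter or strand setting. Per the labels' protocols, cDNA was made straight from cells with an ultra-low-input SMART-Seq v4 kit. The table's title says counts, but its values are not whole and fall with transcript length in all 6 libraries, so a count model was not used. Of 24043 rows, 27 symbols turned into dates were left out.

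The log2(FPKM + 1) of genes whose mean reached 1 FPKM was tested with limma 3.58.1 (R 4.3.3, variance trend, group as the only term, all 6 libraries) and adjusted by Benjamini-Hochberg; the scale understates differences of low genes. The script was checked on simulated data. Alternatives were pseudocounts of 0.1 and 5, 2 other filters, 3 scalings, library weights, a replicate block, leaving out each library, and detection at 0.1 or 5 FPKM; counts of detected members without each library and marker sums without Dcn or Lyz2 were added after seeing the data.

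Depth was estimated from genes with a single transcript, where FPKM times length piles up at the value of 1 fragment; fragment numbers are therefore approximate, and no counting intervals are given. Shared stretches and coding sequences come from GENCODE M21, a different build from the authors', so no positions are printed; coding sequences were aligned with Biopython 1.88.

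The members and gene lists were chosen with earlier results of these data known. Named are all 10 members, the 4 most abundant genes of each other list where none passed the test (for the 16 housekeeping genes Ppia, Eef1a1, Rplp0 and B2m, at 121 to 6279 FPKM), the 3 genes most correlated with each member detected in all 6 libraries, and Krt15, Itgb1, Krt5 and Krt14. Genes outside that rule were named after their values were seen. They are the sequence relatives of Ly6a, genes at 0, Slc25a26, and the markers Ptprc, Tyrobp, Foxa1, Cldn10 and Ivl. The list of melanocyte and Schwann cell genes is not reported here. Same-numbered libraries did not deviate together in all 3 cases, so the numbers were not treated as pairs.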

Additional observations from a re-analysis of the deposited data

How the results depend on the processing

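No tested member passed the adjusted threshold under any alternative. The number of genes called was 0 except with library weights, which gave 8, and over the fits without a library it ranged from 0 to 1 (1 when Krt15-negative replicate 2 was left out). Cd34 stayed below 0 in all 15 alternatives, but with 0 FPKM in all 3 Krt15-positive libraries its sign could hardly differ. Lrig1, Lgr4 and Cd44 stayed above 0 in all 15, of which the 2 other filters and the replicate block cannot alter a difference. For Cd44, whose groups did not overlap, the pseudocounts and leaving out a library could not change the sign either. Lgr4 passed the main filter through its Krt15-positive values, which favours a difference above 0. Lgr4, Cd34 and Sox9 left the test when 1 FPKM was asked for in at least 3 libraries. The Sox9 difference turned to 0.32 with a pseudocount of 0.1 and to 0.45 with library weights, and ranged from -0.80 to 0.85 over the fits without a library (0.85 when Krt15-negative replicate 2 was left out, 0.15 and 0.32 when Krt15-positive replicates 1 and 3 were). That of Ly6a ranged from -0.56 to 0.00068, the last without Krt15-negative replicate 3. The cause was not tested. With a pseudocount of 0.1 the untested Lgr5 and Lgr6 differences became -0.025 and 1.98. At 5 FPKM, 1 member was detected in all 3 Krt15-negative libraries. Without a library, detected pairs ranged from 5 to 8 (Krt15-negative) and from 7 to 10 (Krt15-positive), partly because fewer libraries were counted.

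The replicate block gave 0 genes called, with 337 higher and 142 lower at an unadjusted p under 0.05; in this balanced design the block cannot alter a difference, only its error. Same-numbered libraries correlated in their deviations from the group means at 0.13, 0.17 and 0.0089, and not every library correlated best with its own number. The median difference of all genes moved from 0.63 to 1.20 with a pseudocount of 0.1, to 0.04 after quantile normalization and to 0.03 without Krt15-negative replicate 1. Depth limits Lgr5, which rests on a single fragment.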
